A study of Mus musculus with 3 samples.

Results

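The Hox genes are homeobox genes of the 4 clusters Hoxa, Hoxb, Hoxc and Hoxd. They were examined in cortical endothelial cells sorted from the adult mouse kidney. Every gene whose symbol is Hox followed by a cluster letter and a position number was taken, whatever its signal. Analysed here were 37 such genes with a probeset of their own on the array, among 19938 genes and 35557 probesets in all. The 37 are 10 Hoxa genes, 9 Hoxb genes, 9 Hoxc genes and 9 Hoxd genes, and each was read by 1 probeset. Hoxb8 shared its probeset with Hoxb7.

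The samples were GFP-positive cells of adult Tie2-GFP mice, transgene Tg(TIE2GFP)287Sato, on a mixed, mainly CD-1 background. The 3 samples formed 1 group, cortical endothelial cells, replicates 1, 2 and 3, with 1 kidney per sample. The medulla was cut away and glomeruli were held back on a 40 µm mesh before sorting, so that medullary and glomerular endothelium are largely outside these samples. In the transgene the promoter of Tie2 (Tek), an endothelial receptor kinase, drives GFP, and Tie2 is also used by some blood cells. RNA was amplified before hybridization to Affymetrix Mouse Gene 1.0 ST arrays. There is no second group, so each gene was set against a fixed signal and not against another condition.

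Hox proteins are transcription factors that bind DNA through the homeodomain, mostly together with TALE proteins of the Pbx, Meis and Pknox families. The genes lie in order of position number along each cluster, from those used at the head end of the embryo to those used at the tail end, and genes of the same number in different clusters are called paralogues. Once set in the embryo, their pattern is held by Polycomb repressors and by trithorax activators, and many adult cells, endothelium among them, still carry a pattern that reflects where in the body they arose. In the developing kidney the paralogues of number 11 are needed for outgrowth of the ureteric bud, and Hoxb7 is a marker of the ureteric bud and the collecting duct.

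Values are log2 signals per probeset as deposited. A signal of 100, or 6.64 on the log2 scale, is the limit used throughout. The mean of each probeset was tested one-sided with limma as lying above or below that limit, with p-values adjusted by Benjamini-Hochberg across the whole table and called under 0.05. Different probesets bind with different strength, so a signal is compared with the limit and between samples, not between genes.

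The 3 arrays correlated at r of 0.950, 0.942 and 0.941 over all probesets, with medians of 5.70, 5.70 and 5.66. Many probesets had the same value to 5 decimals in all 3 samples, 40.5% of all probesets and 17 of the 37 Hox genes. Another 14 Hox genes had the same value in 2 of the 3 samples, and 6 had 3 different values. Of the 17 with 3 equal values, 16 had a value that other such probesets also carried, as did 85.4% of all probesets with 3 equal values. Equal values give no measured error, so probesets with 3 equal values were tested with the median spread of the others at the same mean. Endothelial markers were above the limit in 8 of 8 genes. Among markers of other cells, 5 of 6 proximal tubule genes (83.3%) and 2 of 3 of the thick ascending limb (66.7%) were above it. So were 2 of 7 of the distal tubule and collecting duct (28.6%) and 2 of 10 of smooth muscle, pericytes and fibroblasts (20%). Over all genes 19.9% were above, so the last share was close to that of all genes. Of the podocyte markers only Podxl, which endothelium also makes, was above, and the other 3 measured were below, as were all 5 leukocyte markers. Leaving out samples ended the calls of Esam (any sample), Slc22a6 and Slc12a3 (replicate 1 or 3), Acta2 (replicate 1 or 2) and Scnn1g (replicate 2). In these bulk samples fewer cells of a type and less RNA per cell cannot be told apart. The paper describes a minor contamination of its cortical samples, mainly by proximal tubule. The part of tubule cells in the Hox signals was not tested.

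In the Hoxa, Hoxb and Hoxd clusters 5, 7 and 4 genes had 100 or more in every sample, and in Hoxc 0 had. By the test 1 of 10 Hoxa, 3 of 9 Hoxb, 3 of 9 Hoxd and 0 of 9 Hoxc genes were above. The Hoxa call was lost on leaving out any sample. All 3 samples reached 100 for 16 of 37 Hox genes (43.2%), beside 28.0% of all genes. Hoxa6 and Hoxc9 reached it in 1 sample, and the other 19 reached it in none. By the test, 7 Hox genes were above the limit (18.9%), beside 19.9% of all genes, and 19 were below (51.4%), beside 62.2%. The share called above was thus close to that of all genes. The 7 were Hoxa7, Hoxb4, Hoxb5, Hoxb7, Hoxd8, Hoxd9 and Hoxd10. Each of them had 2 equal values among its 3, beside 36.5% of all genes called above, and when such probesets were also given the spread of the others, 3 stayed above, Hoxb4, Hoxb5 and Hoxd8, beside 15.7% of all genes. Where the SD of 0 was kept instead, 10 Hox genes were called above, beside 22.9% of all genes. These were 5 of the 7, without Hoxd9 and Hoxd10, and 5 new ones, Hoxa4, Hoxa9, Hoxa10, Hoxb2 and Hoxb3. The 19 genes below the limit were the same 19 that reached 100 in no sample.

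**Figure D1:**
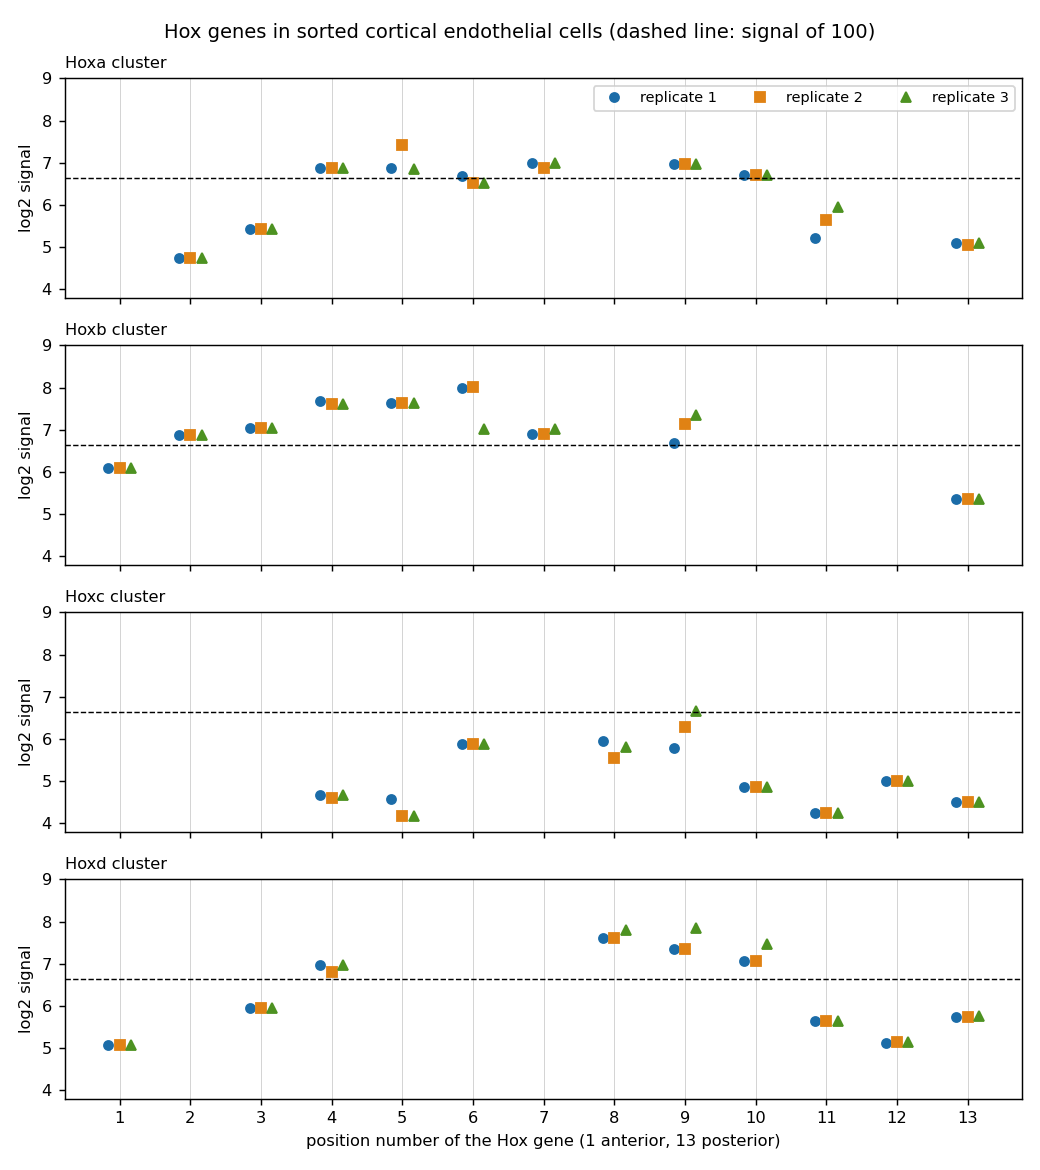
Log2 signal (y axis) of each of the 37 Hox genes in the 3 samples, plotted by position number (x axis) with 1 panel per cluster; points are samples and the dashed line is a signal of 100. Points lie above the line from Hoxb2 to Hoxb9, at 5 of the Hoxa genes and at Hoxd4, Hoxd8, Hoxd9 and Hoxd10 in all samples; besides these only the replicate 1 point of Hoxa6 and the replicate 3 point of Hoxc9 reach it.

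In the Hoxb cluster 7 of 9 measured genes had 100 or more in every sample, from Hoxb2 through Hoxb9 without a gap among those measured. Hoxb8, inside this stretch, was only on the probeset shared with Hoxb7, which read 6.50 in each sample, under the limit. Hoxb4, known as a regulator of blood stem cells, read 7.69, 7.61 and 7.61 on the log2 scale in replicates 1, 2 and 3, a mean of 7.64 ± 0.04 (SD, n = 3; limma adjusted p = 0.00237). Hoxb5, which is known to promote the VEGF receptor Kdr in endothelial precursors, had 7.64, 7.63 and 7.63, a mean of 7.63 ± 0.0024 (SD, n = 3; limma adjusted p = 0.00202). Both genes stood about a whole log2 unit over the limit in all samples, with samples closer to each other than to the limit. Without replicate 1 the remaining values of each gene were equal and took the spread of other probesets, and both calls were lost. With all 3 samples and that kind of spread both were kept (limma adjusted p = 0.0415 for Hoxb4 and 0.0421 for Hoxb5).

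Hoxb7, the collecting duct marker, had 6.91, 6.91 and 7.02 (mean 6.95 ± 0.07 (SD, n = 3); limma adjusted p = 0.0349). It was above the limit in each sample, but by little, and the call was lost when any of the 3 samples was left out. The probeset shared by Hoxb7 and Hoxb8 read 6.50 in each sample, a signal of 90.4, and was neither above nor below. Of the collecting duct markers, Aqp2 had signals of 110, 110 and 129 in replicates 1, 2 and 3, also over 100 in each sample. Its mean of 6.86 ± 0.13 did not pass (limma adjusted p = 0.152), and Scnn1g averaged 6.09 ± 0.25 and was below (SD, n = 3). In the list of distal tubule and collecting duct genes those above were the distal tubule markers Slc12a3 and Calb1. The summed signal of the list was 1253, 1105 and 1633 in replicates 1, 2 and 3, of which Calb1 held 584, 528 and 925. The part of collecting duct cells in the Hoxb7 signal was not tested.

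Hoxb6 was the least even gene of all 37, with 8.0, 8.01 and 7.02. Replicate 3 was lower than the others by 0.98 on the log2 scale, and the mean of 7.68 ± 0.57 (SD, n = 3) did not pass the test (limma adjusted p = 0.0835). Without replicate 3 it was called above. Hoxb9, a gene of the posterior trunk, had 6.68, 7.13 and 7.36, all above the limit but spread over 0.67 (limma adjusted p = 0.206). Hoxb2 and Hoxb3 read 6.87 and 7.05 in every sample and did not pass (limma adjusted p = 0.305 and 0.111). Hoxb3 is known to promote capillary growth in other tissues. The ends of the cluster were below the limit: Hoxb1, a hindbrain gene, at 6.10 in each sample (limma adjusted p = 0.00872) and Hoxb13, a prostate gene, at 5.36 in each (limma adjusted p = 0.000937).

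In the Hoxd cluster 4 of 9 genes had 100 or more in every sample, Hoxd4 and the neighbours Hoxd8, Hoxd9 and Hoxd10. Hoxd8 had 7.62, 7.62 and 7.79, a mean of 7.68 ± 0.10 (SD, n = 3; limma adjusted p = 0.00357). It was the only Hox gene called above whichever sample was left out. Hoxd9 had 7.35, 7.35 and 7.84 (mean 7.52 ± 0.28 (SD, n = 3); limma adjusted p = 0.0281).

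Hoxd10, which is known to hold endothelial cells in a resting state in culture, had 7.08, 7.08 and 7.47 (mean 7.21 ± 0.23 (SD, n = 3); limma adjusted p = 0.0492). All 3 genes were highest in replicate 3. The calls of Hoxd9 and Hoxd10 were lost on leaving out any sample, and where the SD of 0 was kept (limma adjusted p = 0.0511 and 0.0787). Hoxd4 had 6.98, 6.80 and 6.98 and did not pass (limma adjusted p = 0.0707). The other 5 Hoxd genes were below the limit in every sample, among them Hoxd3, which drives cultured endothelial cells to an angiogenic state, at 5.96 in each sample, and Hoxd1 at 5.07 in each. The posterior genes Hoxd11, Hoxd12 and Hoxd13, which pattern the limbs, the genitals and the hindgut, had means of 5.65, 5.13 and 5.75. Hoxd10 was thus over the limit in all samples and its neighbour Hoxd11 under it in all. They were read by different probesets, so a difference between the genes was not measured.

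The Hoxa cluster was close to the limit over much of its length. Hoxa4, Hoxa5, Hoxa7, Hoxa9 and Hoxa10 had 100 or more in every sample, 5 of 10 genes, and 1 of them passed the test. That gene was Hoxa7, known from blood progenitors and leukaemia, with 7.0, 6.87 and 7.0 (mean 6.96 ± 0.07 (SD, n = 3); limma adjusted p = 0.036). As with Hoxb7, leaving out any sample ended the call.

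Hoxa5, which is known to oppose angiogenesis in endothelial cells, had 6.87, 7.43 and 6.86, so that replicate 2 stood over the other samples, a range of 0.57, and it did not pass (limma adjusted p = 0.19). Hoxa9, which is needed for endothelial progenitors to mature, read 6.98 in each sample (limma adjusted p = 0.165). Hoxa4 read 6.87 and Hoxa10, a gene of the uterus and of blood progenitors, 6.70 in each sample. At the limit of 100 those 3 genes were called above only where the SD of 0 was kept.

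Hoxa6 had 6.69, 6.52 and 6.52, and so crossed the limit in replicate 1 alone. The remaining 4 measured Hoxa genes were below the limit in every sample. Hoxa2 and Hoxa3, which pattern the pharyngeal arches and the thymus, read 4.74 and 5.42 in each sample, and Hoxa13 averaged 5.09. Hoxa11, a kidney and uterus gene, was uneven, with 5.22, 5.65 and 5.95, but stayed below the limit in all samples (mean 5.61 ± 0.37 (SD, n = 3); limma adjusted p = 0.00979).

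In the Hoxc cluster 0 of 9 genes had 100 or more in every sample, none was above the limit by the test, and 8 were below. An unadjusted p under 0.05 for a mean above the limit was also seen in 0 of the 9, beside 4939 of all 19938 genes. Hoxc4 had 4.67, 4.60 and 4.67, Hoxc5 had 4.58, 4.19 and 4.19, Hoxc6 had 5.89 in each sample and Hoxc8, a gene of thoracic motor neurons, had 5.96, 5.56 and 5.82. Hoxc10, Hoxc11, Hoxc12 and Hoxc13, the last a hair and nail gene, read 4.87, 4.25, 5.01 and 4.50 in each sample. Hoxc9 was the exception: it had 5.77, 6.29 and 6.65, and crossed the limit in replicate 3 by the smallest of margins, at a signal of 101. Its mean of 6.24 ± 0.44 (SD, n = 3) was not called below (limma adjusted p = 0.121). Whichever sample was left out, and with either treatment of 3 equal values, the same 8 Hoxc genes were below.

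**Figure D2:**
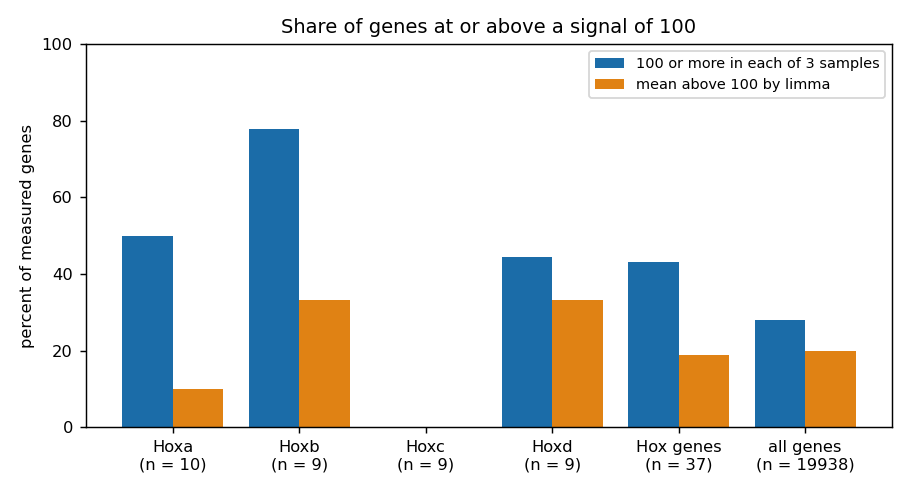
Percent of measured genes (y axis) that reached 100 in all 3 samples (blue) and with a mean above 100 by limma (orange) in each Hox cluster, in all 37 Hox genes and in all 19938 genes (x axis). The blue bars are 50% for Hoxa, 77.8% for Hoxb, 0% for Hoxc and 44.4% for Hoxd, beside 28.0% for all genes.

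The genes were also counted by position number. Of the 14 genes of number 4 to 8, 9 had 100 or more in every sample (64.3%), beside 28.0% of all genes, and 5 were called above (35.7%), beside 19.9%. The 5 were 1, 3 and 4 without replicates 1, 2 and 3 in turn, and 3 when probesets with 2 equal values also took the spread of the others. The 4 called below were Hoxc4, Hoxc5, Hoxc6 and Hoxc8. Of the 7 genes of number 1 to 3, 2 had 100 or more in every sample (Hoxb2 and Hoxb3), 0 were called above and 5 were below, and all 7 had 3 equal values. An unadjusted p under 0.05 for a mean above the limit was seen in 1 of the 7, beside 4939 of all 19938 genes. Of the 16 genes of number 9 to 13, 5 had 100 or more in every sample (31.2%), 2 were called above (12.5%), or 0 whichever sample was left out, and 10 were below (62.5%). All 9 measured genes of number 11, 12 and 13 were below the limit in all 4 clusters, beside 62.2% of all genes. Among the 9 were the 3 paralogues of number 11. Both measured genes of number 1 were below, and both genes of number 7 were above.

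Paralogues of number 4 were split by cluster: Hoxb4 was above the limit, Hoxa4 and Hoxd4 had over 100 in every sample without passing the test, and Hoxc4 was below. The RefSeq promoters of 3 of them are shown because they belong to the same paralogue group and fall on different sides of the limit. Each window runs from 250 bases before to 50 after the annotated start of the gene, in build GRCm38.p6, read 5′ to 3′ on the strand of the gene. Capitals mark matches, on either strand, to TATAAA (the TATA box), CCAAT (the CCAAT box), TGACAG (Meis), TTTATG (Cdx) and TGATTNAT (Hox with Pbx). None of these motifs contains another.
Hoxb4 promoter (chr11:96318017-96318316, + strand): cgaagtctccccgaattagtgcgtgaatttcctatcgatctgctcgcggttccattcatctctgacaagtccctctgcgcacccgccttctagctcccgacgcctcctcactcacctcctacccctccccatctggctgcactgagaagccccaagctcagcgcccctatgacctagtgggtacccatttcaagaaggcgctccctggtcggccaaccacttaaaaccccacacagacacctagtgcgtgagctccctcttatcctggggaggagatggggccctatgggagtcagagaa
Hoxd4 promoter (chr2:74721728-74722027, + strand): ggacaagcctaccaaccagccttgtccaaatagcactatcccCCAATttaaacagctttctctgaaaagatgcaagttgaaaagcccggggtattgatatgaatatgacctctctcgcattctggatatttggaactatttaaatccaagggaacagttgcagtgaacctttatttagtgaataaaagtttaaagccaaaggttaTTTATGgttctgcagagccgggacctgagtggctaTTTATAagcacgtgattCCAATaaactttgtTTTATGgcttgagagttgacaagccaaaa
Hoxc4 promoter (chr15:103034145-103034444, + strand): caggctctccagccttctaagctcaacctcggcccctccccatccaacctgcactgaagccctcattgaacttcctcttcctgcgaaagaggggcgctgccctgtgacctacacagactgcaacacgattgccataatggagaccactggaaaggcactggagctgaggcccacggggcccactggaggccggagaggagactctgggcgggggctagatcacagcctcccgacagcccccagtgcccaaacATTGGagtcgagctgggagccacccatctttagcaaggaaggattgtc
The Hoxb4 window held no match. The Hoxd4 window held a TATA box at base 241, CCAAT boxes at bases 43 and 258 and TTTATG at bases 206 and 272, counted from the 5′ end of the window. The Hoxc4 window held 1 CCAAT box, at base 253. Hoxd4 had 4 CpG dinucleotides, Hoxc4 had 9 and Hoxb4 had 14 in their 300 bases.

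Over the Hox genes the table held 24 windows of 22 genes, against 32851 windows of 27025 genes in all. Hox windows had a median of 14.5 CpG dinucleotides, beside 7 in all windows, with a median observed over expected CpG of 0.626, beside 0.384. A CCAAT box was found in 15 of 24 Hox windows (62.5%), beside 37.4% of all, and a TATA box in 4 (16.7%), beside 13.6%. TTTATG stood in 5 (20.8%), beside 11.9% of all, TGACAG in 2 (8.33%), beside 19.2%, and TGATTNAT in 2 (8.33%), beside 3.22%. By call, the median CpG count was 14 in 5 windows of genes above the limit, 16.5 in 6 of genes called neither and 17.5 in 12 of genes below. The range over all Hox windows, 4 to 45, was far wider than these differences. Windows of Hox genes above and below the limit overlapped in CpG count, and the matches are a description of letters only.

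The spread between samples was not the same along the clusters. Among genes of number 9 to 13, replicate 3 was the highest sample in 6 of 16, replicate 1 or 2 alone in 0, and over all genes replicate 3 was the highest in 15.2%. The 6 were Hoxa11, Hoxb9, Hoxc9, Hoxd9, Hoxd10 and Hoxd13, the last by only 0.02. Their group's summed signal was 1041, 1114 and 1283 in replicates 1, 2 and 3. For genes of number 4 to 8 the sum was 1740, 1726 and 1614, with replicate 3 lowest, and Hoxb6 had signals of 256, 257 and 130, a difference of about the same size.

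**Figure D3:**
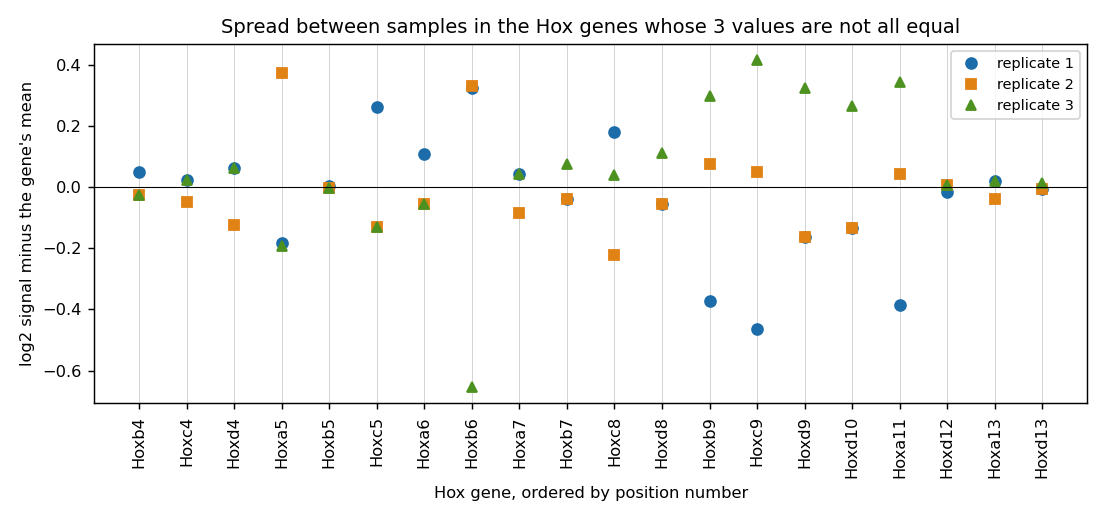
Log2 signal minus the mean of the same gene (y axis) in each sample for the 20 Hox genes whose 3 values are not all equal, ordered by position number (x axis). Replicate 3 (green triangles) is low at Hoxb6, by 0.98 from the other samples, and high at Hoxb9, Hoxc9, Hoxd9, Hoxd10 and Hoxa11.

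Markers of vessel wall cells also differed between samples. In the list of smooth muscle, pericyte and fibroblast genes, replicate 3 was the highest sample in 7 of 10, and the summed signal was 1791, 1811 and 3666. Acta2, smooth muscle actin, had 8.43, 7.97 and 9.50, and Myh11, smooth muscle myosin, had 7.79, 8.14 and 9.44. The fibroblast markers Dcn and Pdgfra stayed below the limit, with means of 4.93 and 4.72, whereas Col1a1, a collagen gene of the same list, read 6.92 in each sample and was called neither. Among distal tubule and collecting duct genes replicate 3 was highest in 4 of 7, with a summed signal of 1253, 1105 and 1633. Much of that sum was Calb1, with 584, 528 and 925, whereas Slc12a3 had 247, 176 and 233. Of the 8 endothelial markers 5 were lowest in replicate 3, with Kdr at 9.72, 9.70 and 8.79, and their sum was 9522, 10360 and 7929. The means of Hoxd9 and Hoxd10 were 0.87 and 0.57 over the limit on the log2 scale with replicate 3, and 0.71 and 0.43 without it. Both calls were lost without it, as they were without replicate 1 or without replicate 2. Replicates 1 and 2 also held signals of vessel wall genes, with the pericyte gene Rgs5 at 804 and 830. In the same samples Tagln, of the same list, had 85 and 110, Pdgfrb 74 and 61, Cspg4 58 in both and Cnn1 31 in both. Cspg4 and Cnn1 were called below, and Tagln and Pdgfrb neither. The part of vessel wall cells or of distal tubule and collecting duct cells in the higher posterior Hox signals of replicate 3 was not tested.

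Regulators and partners of the Hox genes were read from lists. Of 8 measured TALE genes 2 were above the limit, 25.0%, and 6 below, beside 19.9% and 62.2% of all genes. Meis2, a partner that helps Hox proteins choose their sites, read 10.69 in each sample (limma adjusted p = 0.000439). Pbx2 had 7.20, 6.95 and 7.20 (limma adjusted p = 0.0326), and leaving out any sample ended that call. Meis1 (6.16, 6.28 and 6.16), Meis3, Pbx3, Pbx4, Pknox1 and Pknox2 were below the limit. The Meis1 call was lost on leaving out any sample and the Pbx4 call without replicate 1 or replicate 2.

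Of 11 MLL and trithorax genes, whose products place and read activating histone marks at Hox genes, 5 were above (45.5%) and 1 below (9.09%), beside 19.9% and 62.2% of all genes. Kmt2a (MLL1), the methyltransferase best known for holding Hox genes active, read 8.59 in each sample (limma adjusted p = 0.00408). Its complex members Ash2l, Rbbp5 and Dpy30 were above, with means of 7.78, 7.84 ± 0.14 and 9.10 ± 0.27 (SD, n = 3), as was the chromatin tether Psip1 at 7.95 ± 0.21. Wdr5, another member of the complex, had a mean of 5.79 ± 0.20 (SD, n = 3) and was below (limma adjusted p = 0.00402). Men1, Kmt2b, Dot1l and the demethylases Kdm6a and Kdm6b were neither. The complex thus gave signals on both sides of the limit. The Ash2l call was lost without replicate 1 or replicate 2.

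Of 16 measured Polycomb genes, 8 were above (50%) and 4 below (25%), beside 19.9% and 62.2% of all genes. In the complex that places the repressive mark, Ezh1 at 7.68, Suz12 at 7.55 ± 0.20 (SD, n = 3), Jarid2 at 7.70 and Mtf2 at 8.39 were above. Ezh2, the form of dividing cells, had a mean of 6.96 ± 0.35 (SD, n = 3) and did not pass (limma adjusted p = 0.339). Eed was above at its probeset of higher signal, 7.28 ± 0.03 (SD, n = 3), but a second probeset of Eed read 4.82. In the complex that binds the mark, Bmi1 at 8.0 ± 0.03, Phc3 at 10.51 ± 0.37 and Cbx2 at 6.91 ± 0.02 (SD, n = 3) were above, and Ring1, Rnf2, Pcgf2 and Cbx7 were below. The calls of Eed, Suz12, Cbx2, Ring1 and Cbx7 were lost on leaving out any sample, and those of Ezh1 and Jarid2 without replicate 1 or replicate 2. Cbx8 was uneven, with 5.71, 5.88 and 7.45, replicate 3 alone lying over the limit. Phc1 and Phc2 were neither.

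**Figure D4:**
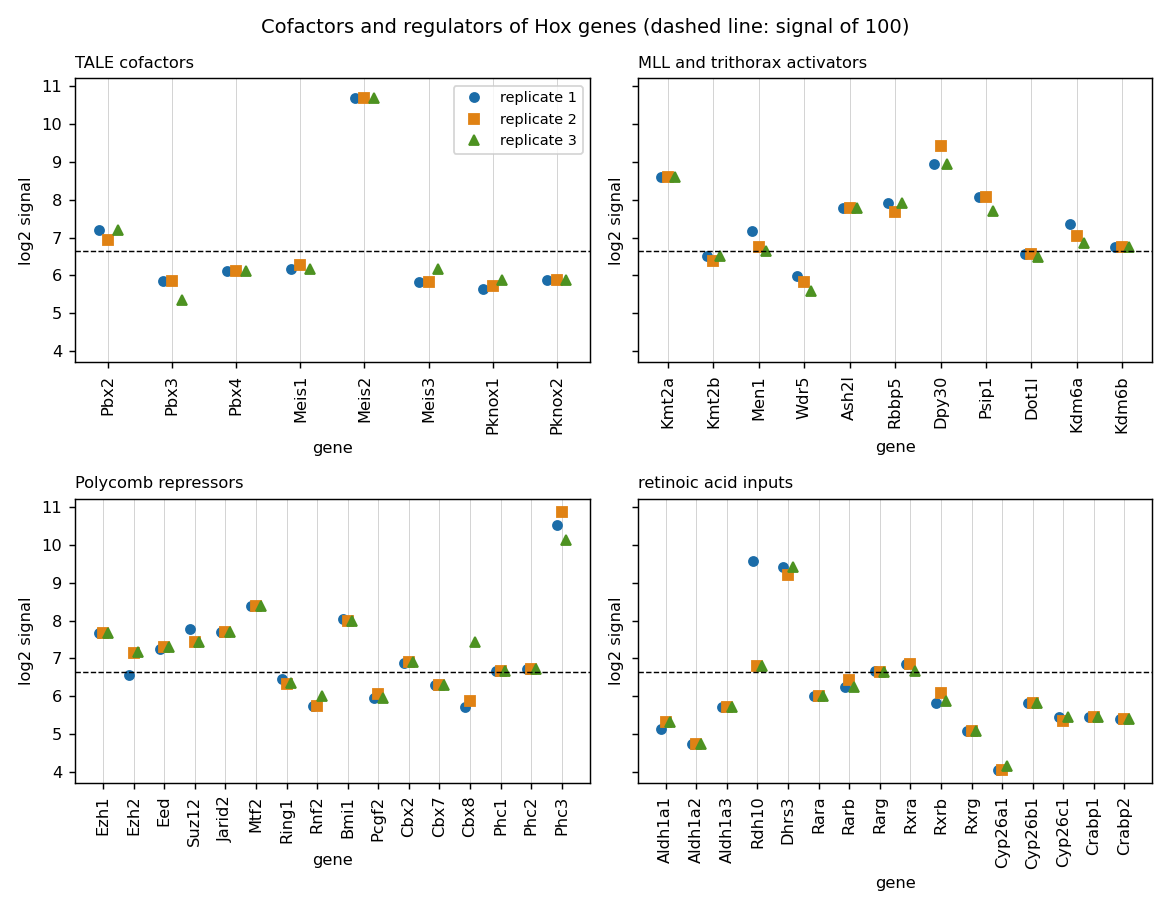
Log2 signal (y axis) in the 3 samples of the measured TALE cofactors, MLL and trithorax activators, Polycomb repressors and retinoic acid genes (x axis: gene), with a dashed line at a signal of 100. Most activator and Polycomb points lie over the line and most retinoic acid points lie under it, apart from Dhrs3, Rdh10, Rarg and Rxra.

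Retinoic acid sets Hox boundaries in the embryo through receptors that bind near the genes. In its list 1 of 16 genes was above the limit and 12 were below (75.0%), beside 62.2% of all genes. The gene above was Dhrs3, which turns retinal back to retinol, at 9.35 ± 0.12 (SD, n = 3; limma adjusted p = 0.000654). The synthetic enzymes Aldh1a1, Aldh1a2 and Aldh1a3, the degrading enzymes Cyp26a1, Cyp26b1 and Cyp26c1, the binding proteins Crabp1 and Crabp2 and the receptors Rara, Rarb, Rxrb and Rxrg were below. Rarg and Rxra were neither, and the Rarb call was lost on leaving out any sample. Rdh10, which makes retinal from retinol, had 9.56, 6.80 and 6.80, a gap of 2.77 between replicate 1 and the others, and did not pass (limma adjusted p = 0.504). All 6 genes of the Cdx and ParaHox list, Cdx1, Cdx2, Cdx4, Gsx1, Gsx2 and Pdx1, which are close relatives of the Hox genes, were below.

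Of 11 other transcripts of the clusters with a probeset of their own, 8 were below the limit (72.7%), 2 above (18.2%) and 1 neither, close to the 62.2% and 19.9% of all genes. Those above were Hoxd3os1, an antisense transcript at Hoxd3, with 7.22, 7.16 and 7.16, and Mir615, the miRNA gene at Hoxc5, with 7.31, 7.25 and 7.25. Both calls were lost on leaving out any sample, and a second probeset of Hoxd3os1 read 5.82, 5.43 and 5.43. Hoxd3 and Hoxc5 themselves were below the limit. Hoxd3os1 was below as well when read at its probeset with the lowest mean or by the mean over its probesets. Hottip, the long RNA beyond Hoxa13, read 4.94, Hoxaas2 5.19, and the homeobox genes Evx1 and Evx2 at the ends of Hoxa and Hoxd averaged 4.99 and 5.84, all below. Hotair, Hotairm1, Hoxaas3, Hoxa11os, Hoxb3os and Hoxb5os had no probeset of their own.

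The clusters also carry the miR-10 and miR-196 families, which are known to act on Hox transcripts. Their mature sequences are shown because the families are read by their seeds, bases 2 to 8, given in capitals, from RefSeq.
miR-10a-5p: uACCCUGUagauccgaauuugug
miR-10b-5p: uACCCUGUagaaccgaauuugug
miR-196a-5p: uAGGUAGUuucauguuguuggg
miR-196b-5p: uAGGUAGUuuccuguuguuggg
miR-10a and miR-10b share the seed ACCCUGU and differ at 1 base, U12A, counted from the 5′ end with the miR-10a base first. miR-196a and miR-196b share the seed AGGUAGU and differ at 1 base, A12C, with the miR-196a base first. Array probesets of miRNA genes read amplified longer RNA and not mature miRNAs. With that limit, Mir10a had 2.98, 3.0 and 3.0 and Mir10b 2.56 in each sample, both below, and Mir196a-2 read 4.36 in each, also below. Mir196a-1 was uneven, with 4.65, 5.09 and 6.25, highest in replicate 3, and was below (limma adjusted p = 0.0375), a call lost without replicate 1 or replicate 2. Mir196b had 6.56, 5.95 and 6.03 and was neither.

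The clusters were set against their surroundings. Of the 3 nearest protein-coding genes on each side of each cluster, 21 of 24 had a probeset of their own, and 11 were above the limit (52.4%) and 8 below (38.1%), beside 19.9% and 62.2% of all genes. The genes above were Cbx3, Skap2, Hibadh and Tax1bp1 beside Hoxa, Atp5g1 and Cbx1 beside Hoxb, Atf7, Atp5g2, Calcoco1 and Cbx5 beside Hoxc, and Atp5g3 beside Hoxd. The neighbours of Hoxc were thus above in 4 of 5 measured genes, with only Smug1 below (5.68 in each sample), while 0 of 9 Hoxc genes between them were. Hibadh and Cbx3 had further probesets, some of them under the limit. The calls of Hibadh and Calcoco1 were lost on leaving out any sample, that of Cbx1 without replicate 1 or 2 and that of Cbx5 without replicate 1.

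Among homeobox genes outside the clusters that endothelium is known to use, Hhex, an early endothelial and blood gene, had 9.12, 9.25 and 9.25 and was above, as was Hlx at 7.75, 7.32 and 7.32. Meox1 averaged 6.85 and was neither. Prox1, the gene of lymphatic identity, at 4.39 ± 0.08 (SD, n = 3), and Meox2, at 4.31, were below. Hlx lost its call on leaving out any sample.

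Genes placed downstream of Hox proteins by work in cultured endothelial cells were on both sides of the limit, 4 above and 4 below of 10 (40% each), beside 19.9% and 62.2% of all genes. Kdr at 9.41 ± 0.53, Ephb4 at 7.49 ± 0.08, the integrin Itgav at 7.75 ± 0.14 (SD, n = 3) and the ephrin Efna1 at 8.44 were above. The Ephb4 call was lost on leaving out any sample, and the Itgav call without replicate 1. Sele, Itgb3, Mmp14 and Epha2 were below. Nos3, the endothelial nitric oxide synthase, had 7.66, 7.32 and 6.92, over the limit in every sample but not called (limma adjusted p = 0.0936), and Plaur was neither. The list was drawn from general knowledge of these genes, and no relation between a Hox signal and a target was tested, since 3 samples of 1 group do not allow it.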

How the data were processed

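Expression was measured in 3 samples of 1 group. The authors deposited log2 signals per probeset, normalized between arrays. RMA in GeneSpring GX is named by the paper, Affymetrix Expression Console by the submitters' processing notes. Which arrays were normalized together, and with what version, is not given in the sources used here. No further transformation was applied. Each sample was 1 kidney. P-values rest on the spread between these samples, except at probesets with 3 equal values, where they rest on that of other probesets. With 2 equal values, as in all 7 Hox genes called above, the SD rests on 1 differing value. The number of arrays, 3, limits the precision.

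The probe table gives 1 gene for 21789 of 35557 probesets, several for 1621 and none for 12147. A gene was taken at its probeset with the highest mean. All probesets entered a limma 3.58.1 fit in R 4.3.3 (intercept only, log2 signal minus log2 of 100, variance trend). The limit of 100 is the raw level of the filter in the paper. Probesets with 3 equal values, a measured SD of 0, took the median SD of the others in the same of 20 bins of mean. P-values were adjusted over all probesets, one-sided. The script was tested on simulated data. Tables were made with pandas 2.3.3 and numpy 2.4.6 in Python 3.11.15.

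The members and the 15 lists were chosen with earlier results of these data known. Named were all Hox genes and flanking genes above the limit. In the lists other than those of cell types, the first 8 genes and all genes behind a count of 5 or less were named. Further list genes were named after their values were seen, to complete a pathway. In the cell type lists only some genes were named, and not by this rule. Sequences and gene neighbours are from RefSeq (GRCm38.p6), and the array's own build was not used. Alternatives were limits of 50 and 200, a rule without a test, SDs of 0 kept, the wider rule for equal values (chosen after seeing the data), other scalings, no trend, other probeset rules and each sample left out. Some genes are not reported here.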

Additional observations from a re-analysis of the deposited data

How the results depend on the processing

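The number of Hox genes above the limit, 7, was 19 at a limit of 50, 0 at a limit of 200, 16 by the rule of 100 or more in each sample, 3 when probesets with 2 equal values also took the spread of the others (chosen after seeing the data), and 1 to 4 when a sample was left out, 1 of them without replicate 1. The number below, 19, was 10 at a limit of 50 and 32 at a limit of 200, 18 with the wider rule for equal values, without Hoxb1, and 19 whichever sample was left out. Over the other lists 54 genes were above, 89 at a limit of 50, 27 at a limit of 200, and 34 to 42 with a sample left out. The whole table moved too. Of all 35557 probesets 6653 were above, 14326 at a limit of 50, 3235 at a limit of 200 and 4514 to 5472 with a sample left out. Those below were 22145, 13922 at a limit of 50, 27695 at a limit of 200 and 20571 to 20762 with a sample left out. At a limit of 200 the mean log2 signal minus the limit turned negative for Hoxa4 (-0.78), Hoxa5 (-0.59), Hoxa7 (-0.69), Hoxa9 (-0.66), Hoxa10 (-0.94), Hoxb2 (-0.78), Hoxb3 (-0.59), Hoxb4 (-0.0065), Hoxb5 (-0.0114), Hoxb7 (-0.70), Hoxb9 (-0.59), Hoxd4 (-0.72), Hoxd9 (-0.13) and Hoxd10 (-0.43). At a limit of 50 it turned positive for Hoxa6 (0.94), Hoxb1 (0.45), Hoxc6 (0.25), Hoxc8 (0.13), Hoxd3 (0.32), Hoxd11 (0.0111) and Hoxd13 (0.11). Quantile normalization and a shift to the same median each gave 5 Hox genes above, without Hoxb7 and Hoxd10, and 19 below. Without a variance trend and under both other probeset rules the counts stayed at 7 and 19. The limit is thus a convention, and these calls are relative to it. No paired analysis was possible because the samples form 1 group.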
